A study of Mus musculus with 34 samples.

Results

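The genes described here encode the enzymes of cholesterol and fatty acid synthesis and their regulators. The set holds 29 genes of the 23951 in the deposited expression tables, chosen by a list of symbols that was drawn up because Mvd was higher in all 3 mutant hippocampal groups than in controls. That choice used the comparisons of each mutant group with control, so values in those 3 comparisons are given as a description, without a p-value for any member. All 29 symbols were found, 28 had a value above 0 in at least 1 library, and Hmgcs1, which encodes cytosolic HMG-CoA synthase, was listed at 0 in all 27 libraries, as 4200 genes were. Whether that 0 is a failed estimate cannot be told from these values, and Hmgcs1 entered no test.

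RNA-seq was done on the hippocampus of 20 mice in 4 groups and on 7 samples of GFAP+ nuclei sorted from cortex in 2 groups. All mice carried floxed Hdac1 alleles (Hdac1f/f). Control mice (n = 4, 13 to 14 months old) had no further transgene, and Hdac1 cKO mice (n = 5, 13 to 14 months) also carried Nestin-Cre, a Cre driven by a neural promoter that removes Hdac1, the gene of a histone deacetylase, from neurons and astrocytes but leaves it in microglia. The 5XFAD mice (n = 6, 13 months) were Hdac1f/f with the 5XFAD transgenes, human genes with familial Alzheimer's disease mutations under the neuronal Thy1 promoter. Compound mice (n = 5, 13 months, Hdac1 cKO; 5XFAD in the plots) were Hdac1f/f with both Nestin-Cre and 5XFAD. The GFAP+ nuclei came from control (n = 3) and Hdac1 cKO (n = 4) animals of 13 months, and GFAP marks astrocytes. Hippocampal libraries held 3′ tags and the nuclei were read with a whole-transcript kit, so levels from these sources are set side by side without a test. Values are FPKM, the authors' fragment counts scaled to transcript length and library size. Each hippocampal library is called a mouse here, although the labels only number the libraries of a group, and p-values measure the spread between these libraries. Control and Hdac1 cKO samples differ from 5XFAD and compound samples in age label and lie in a separate block of sample numbers. Whether libraries of these blocks were made together is not stated. In any comparison of mice with and without 5XFAD, such differences cannot be told apart from 5XFAD.

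Hdac1 itself was at 5.91 to 10.7 FPKM in control and 6.1 to 9.64 FPKM in 5XFAD hippocampus, against 2.36 to 3.03 FPKM in Hdac1 cKO and 1.15 to 2.52 FPKM in compound mice. In GFAP+ nuclei the groups overlapped, with 14.5, 9.91 and 22.3 FPKM of Hdac1 in control and 9.71, 11.5, 5.8 and 8.73 FPKM in Hdac1 cKO samples (adjusted p = 0.984, limma), so these values do not separate the labelled genotypes of the nuclei. The summed level of 6 astrocyte markers was 2060 to 2400 FPKM in nuclei and 363 to 614 FPKM in hippocampus, while 6 neuronal markers summed to 168 to 243 FPKM and to 1180 to 1590 FPKM. Oligodendrocyte markers (7 genes) summed to 451 to 1230 FPKM in nuclei and 1020 to 1900 FPKM in hippocampus. Markers of their precursors (3 genes) summed to 13.4 to 39.5 FPKM and to 4.28 to 8.07 FPKM. The sorted nuclei thus also held RNA of the oligodendrocyte lineage. Relative depth, read from the step between low FPKM values, spanned 0.754 to 2.35 in hippocampal libraries and 0.869 to 1.26 in nuclei. Ttr, a choroid plexus marker, ran from 53.8 to 20100 FPKM across hippocampal libraries, was under 2000 FPKM in all 5 Hdac1 cKO mice and at or above it in 3 of 4 controls.

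Cholesterol is made from acetyl-CoA through mevalonate, isoprenoid diphosphates, squalene and lanosterol. In the brain it is made locally, because lipoproteins of the blood hardly cross the blood-brain barrier, and in the adult it is made largely by astrocytes, while myelinating oligodendrocytes make it for myelin. The pathway is under feedback control: when sterols are low, Scap carries the SREBP transcription factors (Srebf1, Srebf2) from the endoplasmic reticulum for processing, Insig1 and Insig2 hold Scap back when sterols are high, and the processed factors bind sterol regulatory elements, often together with the CCAAT-binding factor NF-Y and Sp1. Acly, Fasn, Scd1 and Scd2 make and desaturate fatty acids, and Cyp46a1 turns neuronal cholesterol into an oxysterol that leaves the brain.

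In control hippocampus the fatty acid desaturase Scd2 had the highest mean level of the members, 138 FPKM, followed by Cyp46a1 at 50.3 FPKM and the sterol methyl oxidase Msmo1 at 49.5 ± 1.83 FPKM (SD, n = 4), the last pair with overlapping mice. Lowest above 0 was Srebf2, at 0.192 to 0.705 FPKM in the 4 controls and below 1 FPKM in all 20 hippocampal libraries. Whether these low values of Srebf2 are failed estimates was not settled. FPKM divides by transcript length, and 3′ tags do not scale with length, so the order of genes in hippocampus holds only on this scale. In GFAP+ nuclei of controls the order differed: Scd2 was at 254 FPKM, Srebf1 at 160 FPKM and Msmo1 at 137 FPKM, and Srebf2 was at 26.6 to 30.6 FPKM. Mvd was at 36.9, 22.9 and 47 FPKM in these nuclei.

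**Figure D1:**
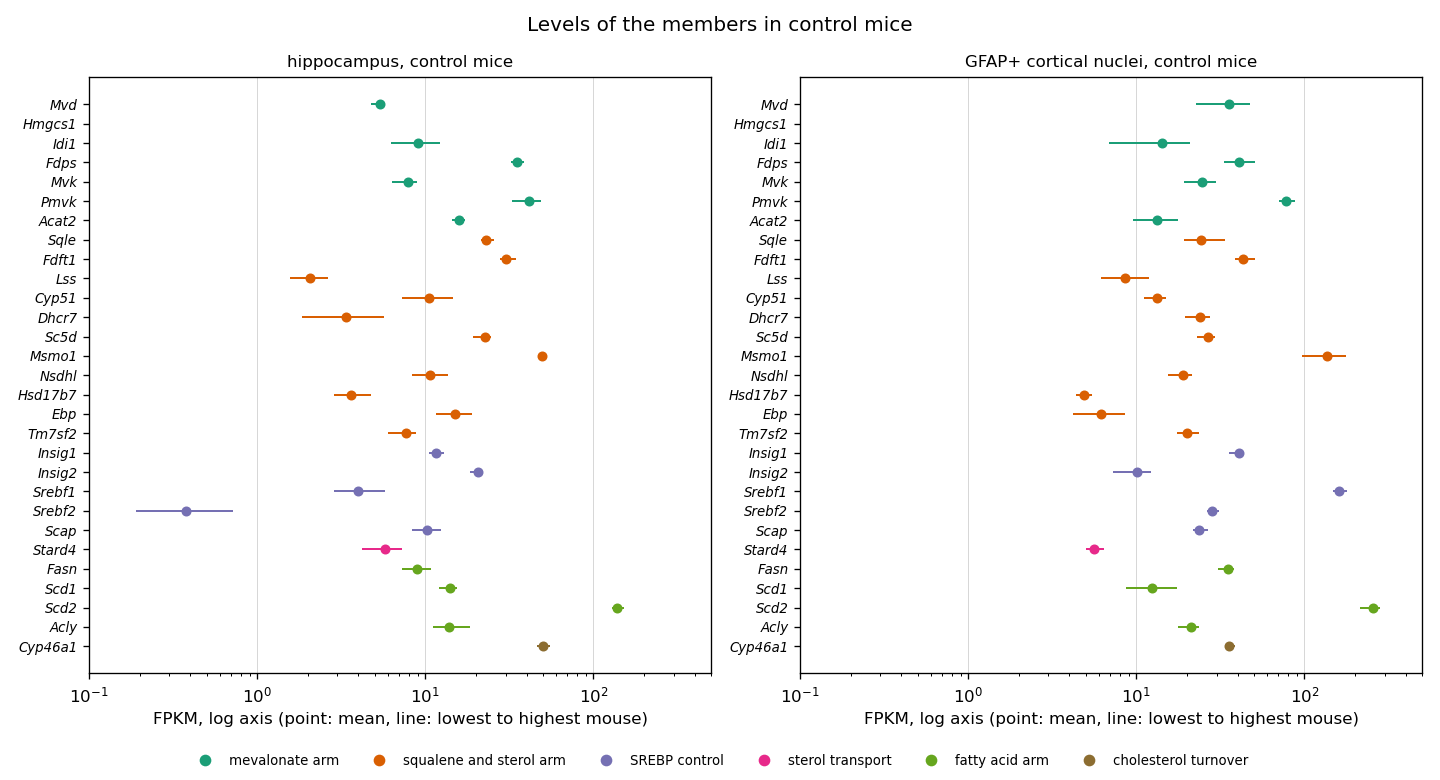
Levels of the members in control mice, in hippocampus (4 mice, left) and in GFAP+ cortical nuclei (3 samples, right), in FPKM on a log axis, with points for means, lines from the lowest to the highest sample and colours for roles. Srebf2 is the lowest member above 0 in hippocampus, and Hmgcs1, listed at 0, has no point.

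Among the enzymes of the mevalonate arm, Mvd was higher in each mutant group than in the controls, which is the pattern for which the set was chosen. Mvd encodes mevalonate diphosphate decarboxylase, which makes isopentenyl diphosphate, the building block of sterols and other isoprenoids. Its level was 5.71, 5.3, 4.84 and 5.64 FPKM in the 4 controls. In Hdac1 cKO mice it was 9.42, 9.69, 10.6, 7.91 and 6.03 FPKM. The lowest, median and highest 5XFAD values were 7.82, 13.2 and 16.3 FPKM. In compound mice it was 6.2, 11, 11, 19.8 and 8.36 FPKM. No mutant mouse overlapped the controls, while the 3 mutant groups overlapped each other. The log2 fold change on the log2(FPKM + 1) scale was 0.59 ± 0.15 (SE) in Hdac1 cKO, 1.05 ± 0.18 in 5XFAD and 0.85 ± 0.25 in compound mice, all against the same 4 controls.

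The Mvd gene lies on chromosome 8 (mm9, chr8:124957496-124967322, minus strand, protein-coding), and Cyba, which encodes a subunit of the phagocyte NADPH oxidase, lies 655 bp downstream on the same strand (positions of genes are from GENCODE vM1). Cyba was at 10.6 to 25 FPKM in control, 6.2 to 16.6 FPKM in Hdac1 cKO, 23.7 to 39.3 FPKM in 5XFAD and 25.6 to 58.9 FPKM in compound mice. It was thus high in both 5XFAD-bearing groups but not in Hdac1 cKO, and whether its reads reach the Mvd count was not tested. The promoter of Mvd, shown because this gene defines the set, is given below from the RefSeq promoter table (GRCm38.p6, chr8:122443373-122443672, minus strand, 250 bases before to 50 bases after the start), 5′ to 3′ on the gene's strand, with the letters CCAAT or their reverse complement ATTGG in capitals.
Mvd: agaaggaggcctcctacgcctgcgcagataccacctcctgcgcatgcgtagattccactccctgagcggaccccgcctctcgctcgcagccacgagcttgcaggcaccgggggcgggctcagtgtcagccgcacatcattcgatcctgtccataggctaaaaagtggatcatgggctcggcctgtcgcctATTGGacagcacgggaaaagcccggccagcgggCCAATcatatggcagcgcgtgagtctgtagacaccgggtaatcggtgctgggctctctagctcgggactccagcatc
It holds 2 such motifs, the nearer one 22 bases upstream of the start site, 1 GC box (GGGCGG) and no sterol regulatory element of the form TCACNCCAC on either strand.

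Acat2 encodes the cytosolic acetyl-CoA acetyltransferase that opens the pathway. It was at 17, 14.6, 16.1 and 15.4 FPKM in controls and 16.9, 16.9, 17.6, 19.3 and 19.6 FPKM in Hdac1 cKO mice. In 5XFAD mice the lowest, median and highest values were 24.3, 25.5 and 29.7 FPKM, and compound mice were at 23.9, 20.6, 17.6, 30.7 and 34.4 FPKM. All 5XFAD and compound mice lay above all controls, and 1 compound mouse lay within the Hdac1 cKO range. Acat3, a close paralog 2487 bp away on the same strand whose reads could be shared with Acat2, stayed at 31.6 to 54.1 FPKM over the 20 mice with a mean of 41.8 FPKM in control and 44.6 FPKM in 5XFAD.

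Idi1, the isomerase that acts on the product of Mvd, was at 12, 10.9, 6.32 and 6.99 FPKM in controls. It was 5.82, 7.82, 6.11, 8.82 and 6.36 FPKM in Hdac1 cKO, 6.72 at the lowest, 8.76 at the median and 9.88 FPKM at the highest in 5XFAD, and 12.9, 8.8, 12.4, 13.4 and 9.85 FPKM in compound mice. The highest Hdac1 cKO mouse, at 8.82 FPKM, passed the lowest compound mouse, at 8.8 FPKM, and controls overlapped both groups. Of the remaining members of this arm, the mevalonate kinase Mvk was at 6.46 to 8.75 FPKM in control and 8.94 to 15.5 FPKM in 5XFAD mice without overlap. In Hdac1 cKO (4.85 to 11.7 FPKM) and compound mice (5.53 to 17.3 FPKM) Mvk overlapped the controls. Fdps, which makes farnesyl diphosphate, ranged from 24 to 63.2 FPKM over all hippocampal mice, and the kinase Pmvk ranged from 31.6 to 50.3 FPKM.

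In the squalene and sterol arm, Sqle encodes squalene epoxidase, a rate-controlling step of sterol synthesis. Sqle was at 21.6, 21.8, 25.2 and 22.5 FPKM in control and 23.9, 23.4, 19.9, 19.2 and 22.4 FPKM in Hdac1 cKO mice. The 5XFAD values ran from 32.3 through a median of 34.9 to 40.5 FPKM, and compound mice were at 37.4, 36.8, 45.4, 46.9 and 38.1 FPKM. Every mouse with 5XFAD was thus above every mouse without it. Shares of all genes without overlap are given below for pairs of groups, and the share for this split was not counted.

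Fdft1, squalene synthase, divided the mice in the same way: 28.3, 28.7, 30.1 and 34.2 FPKM in control, 26.9, 28.5, 32.9, 24.8 and 24.6 FPKM in Hdac1 cKO, 36.1, 39.2 and 43.2 FPKM as the lowest, median and highest 5XFAD values, and 40.5, 43.3, 36.3, 49.8 and 38.4 FPKM in compound mice. The 3′ end of Fdft1 (mm9, chr14:63763990-63796630, minus strand) overlaps the 3′ end of Ctsb, the gene of the lysosomal protease cathepsin B on the opposite strand, by 769 bp. Ctsb was at 71.1 to 84 FPKM in control, 63.5 to 79.2 FPKM in Hdac1 cKO, 97.7 to 115 FPKM in 5XFAD and 114 to 160 FPKM in compound mice. Fdft1 and Ctsb therefore differed between groups in the same order, the sources used here do not say whether strand was used in counting, and the Fdft1 values are uncertain for that reason.

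Msmo1, which removes methyl groups from lanosterol derivatives, was at 51.9, 49.7, 48.9 and 47.5 FPKM in control and lower on average in Hdac1 cKO mice, at 42.5, 42.1, 49.6, 40.2 and 31.5 FPKM. The lowest, median and highest 5XFAD values of Msmo1 were 54.2, 58.8 and 62.8 FPKM. Compound mice were at 84.4, 69.2, 71.1, 81.8 and 61.2 FPKM, of which 1 lay within the 5XFAD range. Nsdhl, the sterol dehydrogenase acting on the same methyl groups, was at 11.3, 9.66, 8.5 and 13.5 FPKM in control, 10.5, 12.8, 11.4, 8.73 and 10.8 FPKM in Hdac1 cKO, and 16.4, 22.1, 15.2, 21.3 and 15.5 FPKM in compound mice. Its 5XFAD values were 9.62 at the lowest, 15.6 at the median and 17.2 FPKM at the highest, so that 1 5XFAD mouse lay among the controls.

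Dhcr7, the reductase that yields cholesterol in the last step, was at 1.88, 3.05, 3 and 5.6 FPKM in control, 5.23, 5.56, 4.85, 3.71 and 4.39 FPKM in Hdac1 cKO, 3.65, 4.3 and 5.35 FPKM as the lowest, median and highest in 5XFAD, and 3.69, 5.11, 4.99, 6.82 and 7.58 FPKM in compound mice. The mutant groups overlapped each other, and they overlapped the controls only through the control at 5.6 FPKM. Tm7sf2, another sterol reductase, was at 8.41, 8.67, 7.73 and 6.06 FPKM in control, 12.5, 13.2, 9.8, 7.6 and 8.18 FPKM in Hdac1 cKO, 6.69, 10.8 and 16 FPKM in 5XFAD (lowest, median, highest) and 9.33, 4.42, 6.38, 12.2 and 7.99 FPKM in compound mice, and all 4 groups overlapped. The other members of the arm, Lss (0.687 to 3.37 FPKM over all hippocampal mice), Hsd17b7 (2.83 to 6.7), Cyp51 (7.41 to 14.9), Ebp (9.5 to 20.6) and Sc5d (12.7 to 30.4), also overlapped between all groups.

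Stard4, a carrier of free cholesterol between membranes, was at 6.95, 7.2, 4.28 and 4.51 FPKM in control and 6.45, 4.05, 7.14, 2.07 and 4.36 FPKM in Hdac1 cKO mice. In 5XFAD it was 5.53 at the lowest, 8.76 at the median and 11.5 FPKM at the highest, and in compound mice 7.63, 9.7, 12.6, 14.8 and 8.95 FPKM. Compound mice lay above all control and Hdac1 cKO mice. Among the regulators, the SREBP chaperone Scap ranged from 8.5 to 15 FPKM, Insig1 from 8.9 to 20 FPKM, Insig2 from 14 to 23.7 FPKM and Srebf1 from 2.92 to 5.67 FPKM over all 20 hippocampal mice, and each mutant group overlapped the controls. The fatty acid enzymes Acly, from 9.95 to 19.5 FPKM, and Fasn, from 7.41 to 15 FPKM, overlapped likewise. Scd1, a desaturase, was at 12.3 to 15.2 FPKM in control and 15.5 to 24.7 FPKM in compound mice without overlap, and Scd2 ranged from 124 to 176 FPKM. Cyp46a1 was at 46.6 to 54.2 FPKM in control and 46.5 to 72.5 FPKM in the mutant groups.

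**Figure D2:**
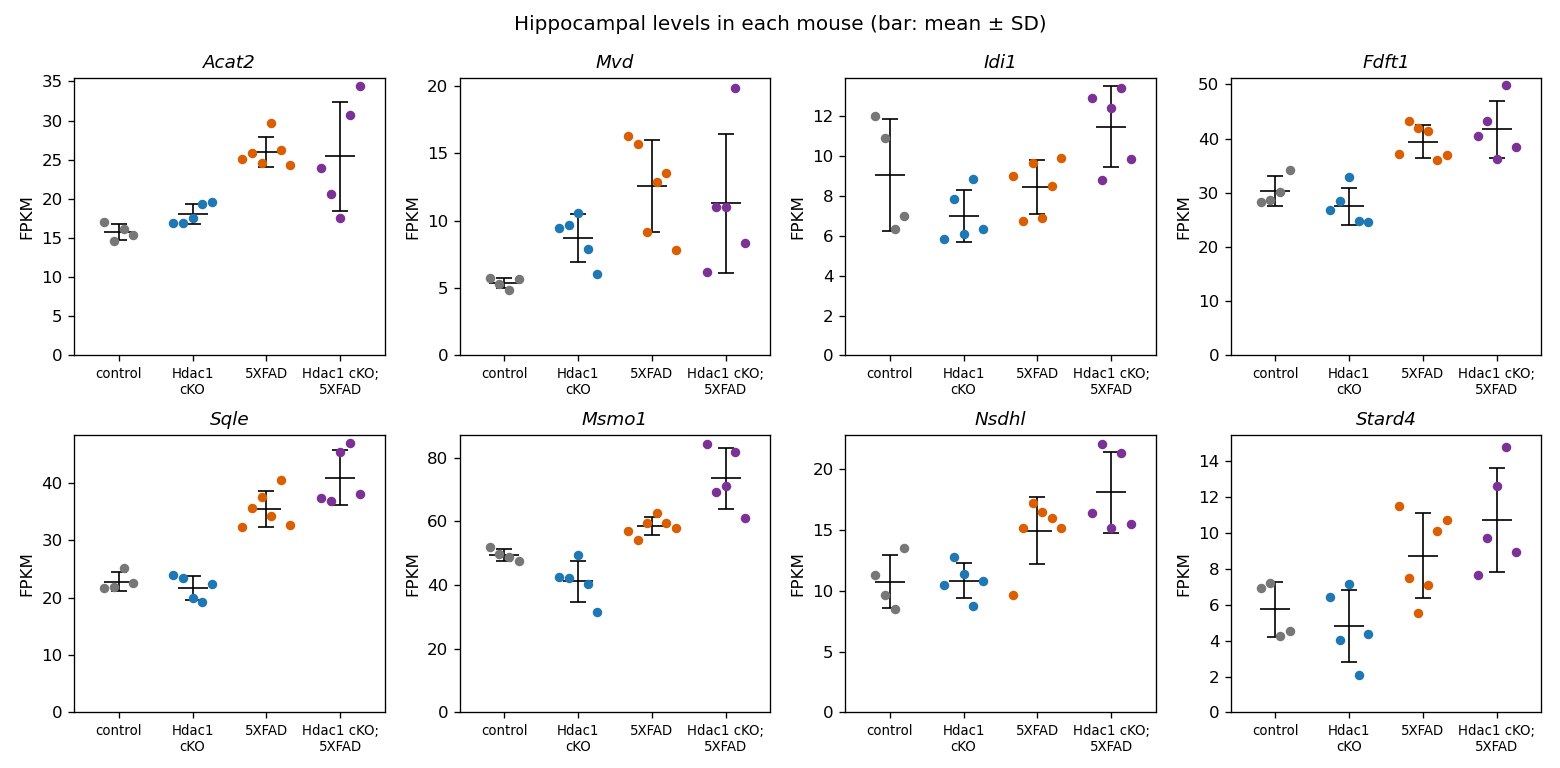
Hippocampal FPKM of 8 members in each mouse (points), with the mean and SD of each group (bars), in control (n = 4), Hdac1 cKO (n = 5), 5XFAD (n = 6) and compound mice (n = 5). For Sqle and Fdft1 all 5XFAD and compound mice lie above all control and Hdac1 cKO mice, and for Mvd all mutant mice lie above the controls. The shares of all genes that divide the mice in these ways were not counted.

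Loss of Hdac1 alone was set against control to ask what the deletion does in aged hippocampus. Of the 27 members that passed the filter on low values (a mean of at least 0.5 FPKM; Srebf2 and Hmgcs1 did not), 11 were higher and 16 lower in Hdac1 cKO mice, with a median log2 fold change of -0.08 against -0.000684 over the 14265 genes tested. A gene was called where its fold change was at least 1.5 with an unadjusted p under 0.05, and in the comparisons with control such a call of a member only describes it, since these comparisons chose the set. Only Mvd was called higher, at a fold of 1.505 just inside the threshold, and Dhcr7 was the next at 1.36, whereas 0.498% of all genes were called higher. No member was called lower (2.87% of all genes). Mvd was also the single member without overlap in the higher direction (2.08% of all genes), and none was without overlap in the lower direction (2.15%). Without control 3 or Hdac1 cKO 1, 2 or 3 the fold of Mvd missed the threshold and 0 members were called, and without control 4 Dhcr7 was called as well. After Mvd, the highest log2 fold changes were those of Dhcr7 (0.45 ± 0.21, SE), Tm7sf2 (0.35 ± 0.17), Scap (0.34 ± 0.13) and Fasn (0.25 ± 0.14), and on the other side Sqle was at -0.06 ± 0.10, Fdft1 at -0.14 ± 0.11, Msmo1 at -0.27 ± 0.11 and Idi1 at -0.30 ± 0.19.

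In 5XFAD mice 23 of the 27 members were higher than in the same controls, and the median log2 fold change was 0.25 against -0.01 over 14402 genes. Acat2 (0.68 ± 0.09), Mvd and Sqle (0.62 ± 0.10) were called higher, next to 1.72% of all genes, and none was called lower (1.23%). Just inside the threshold was Sqle at 1.53-fold, and just outside it Mvk at 1.499-fold. Acat2, Fdft1, Msmo1, Mvd, Mvk and Sqle had no overlap with control (1.92% of all genes in this direction), and none was without overlap in the lower direction (0.986%). Of the fatty acid enzymes, Fasn, the fatty acid synthase, was at 0.36 ± 0.13, Acly at 0.15 ± 0.14, Scd1 at 0.15 ± 0.11 and Scd2 at 0.04 ± 0.08. Without 5XFAD 5 the call of Sqle was lost, and without control 1, control 2 or 5XFAD 3 Mvk and Stard4 were called too, making 5. With only the libraries at or above 2000 FPKM of Ttr, a subset chosen after seeing the data (3 control and 4 5XFAD mice), Acat2, Mvd and Stard4 were called, next to 3.78% of all genes in either direction, and Sqle was not (0.56 on the log2 scale).

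Compound mice had 24 of 27 members higher than control, with a median of 0.36 against -0.01 over 14348 genes. Called higher were Acat2 (0.62 ± 0.17), Dhcr7 (0.63 ± 0.24), Mvd, Nsdhl (0.71 ± 0.16), Sqle (0.81 ± 0.11) and Stard4 (0.80 ± 0.21), next to 2.22% of all genes, and none was called lower (2.02%). Acat2 at 1.53-fold was just inside the threshold and Msmo1 at 1.47-fold just outside. In 8 members, Acat2, Fdft1, Msmo1, Mvd, Nsdhl, Scd1, Sqle and Stard4, the groups did not overlap in the higher direction (2.75% of all genes), and in none in the lower (1.52%). Compound mouse 4 was the highest compound mouse for Mvd, Sqle, Fdft1, Fdps and Stard4, and without it 4 members were called (not Acat2 or Dhcr7), the median was 0.27 and Mvd was at 0.64. Acat2 was also not called without control 2 or compound 5, nor Dhcr7 without control 1, control 3 or compound 5.

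**Figure D3:**
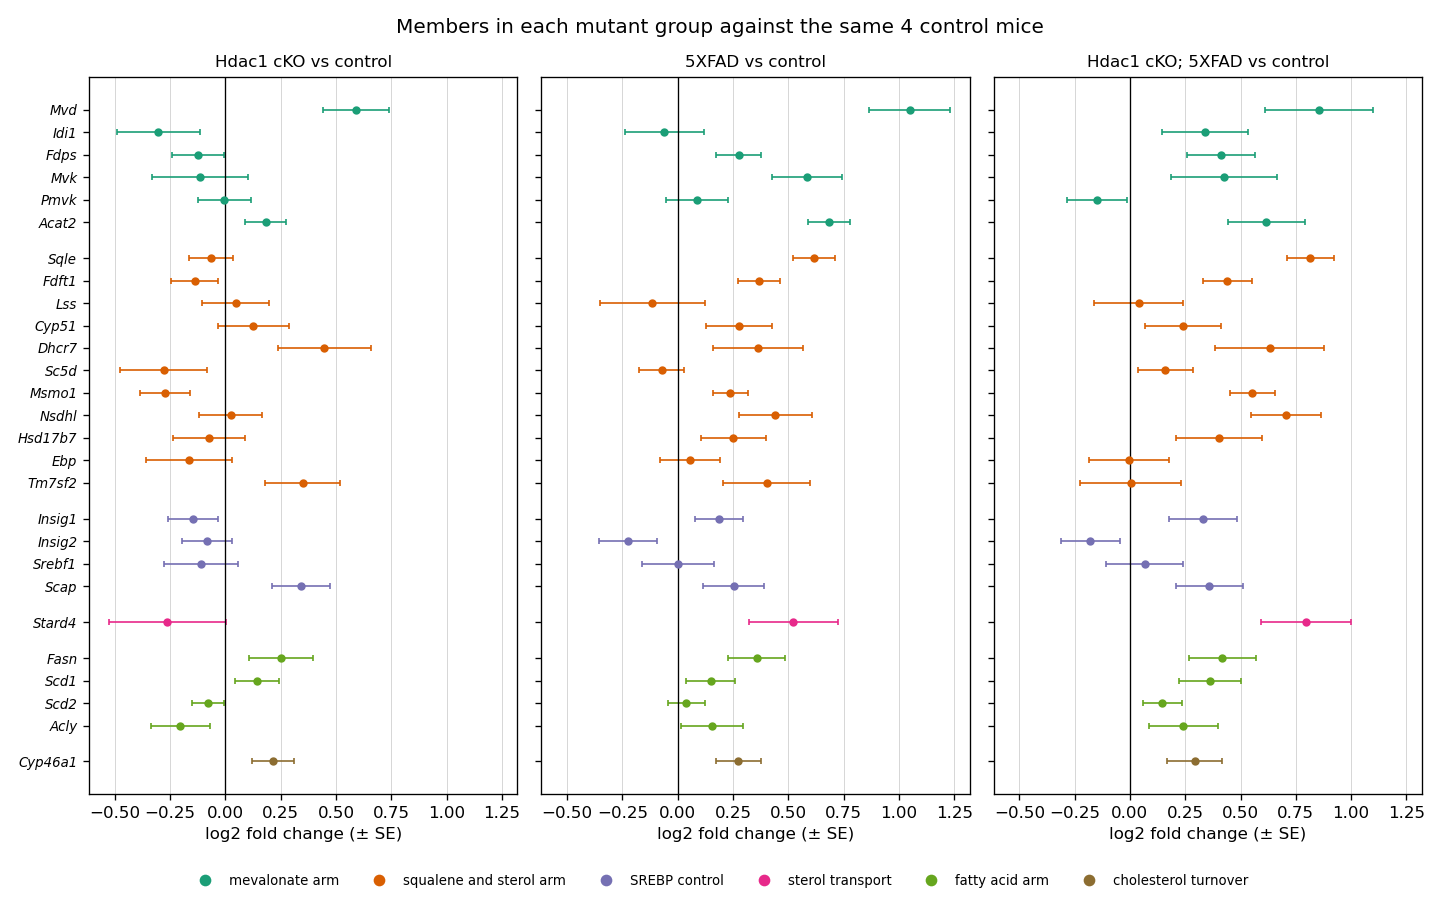
Log2 fold change of the members in Hdac1 cKO, 5XFAD and compound mice (left to right) against the same 4 controls, on the log2(FPKM + 1) scale, with bars for the standard error and colours for roles. The members scatter around 0 in Hdac1 cKO, with a median of -0.08, and lie mostly to the right of it in 5XFAD and compound mice, with medians of 0.25 and 0.36.

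The mean level of each arm, as log2(FPKM + 1) averaged over its genes was also taken by mouse. For the mevalonate arm without Mvd, the gene that chose the set, and without Hmgcs1 it was 4.11 to 4.37 in control, 4.02 to 4.21 in Hdac1 cKO, 4.43 to 4.58 in 5XFAD and 4.39 to 4.92 in compound mice. On this score all mice with 5XFAD were above all without, by a narrow margin between control 1 and the lowest compound mouse. The squalene and sterol arm was at 3.54 to 3.69, 3.45 to 3.78, 3.73 to 4.04 and 3.88 to 4.18 in these groups, with 5XFAD overlapping Hdac1 cKO. For the regulators (SREBP control) the ranges overlapped throughout, from 2.73 to 3.15. The fatty acid arm ran from 4.44 to 4.64 in control, 4.48 to 4.65 in Hdac1 cKO, 4.6 to 4.89 in 5XFAD and 4.65 to 5.05 in compound mice.

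**Figure D4:**
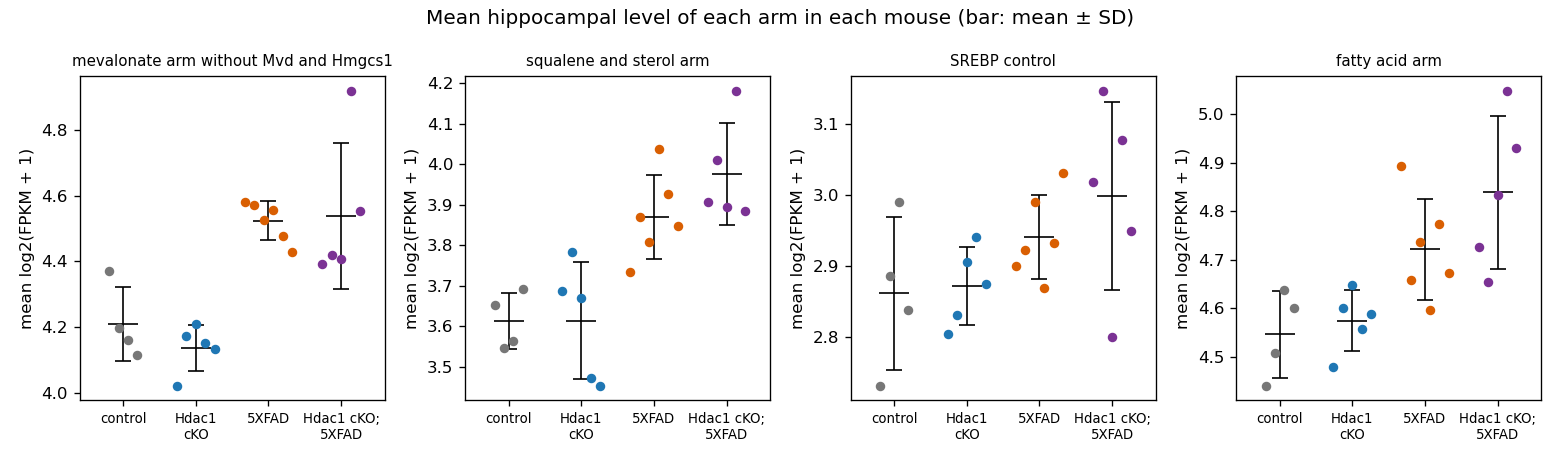
Mean log2(FPKM + 1) over the genes of the mevalonate arm without Mvd and Hmgcs1 (5 genes), the squalene and sterol arm (11), SREBP control (5) and the fatty acid arm (4) in each hippocampal mouse (points), with the mean and SD of each group (bars). In the left panel the 5XFAD and compound mice, at 4.39 to 4.92, lie above the control and Hdac1 cKO mice, at 4.02 to 4.37.

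Markers of other cell types differed between the groups too. The summed level of 6 microglial markers was 213 to 267 FPKM in control, 222 to 289 FPKM in Hdac1 cKO, 586 to 881 FPKM in 5XFAD and 821 to 1650 FPKM in compound mice, with 5 of 6 called higher than control in each 5XFAD-bearing group and 0 in Hdac1 cKO. Astrocyte markers summed to 363 to 425, 371 to 444, 439 to 501 and 511 to 614 FPKM in these groups, with 1 of 6 called in 5XFAD and 2 of 6 in compound mice. Oligodendrocyte markers, of which 0 of 7 were called, summed to 1180 to 1260, 1020 to 1200, 1070 to 1460 and 1160 to 1900 FPKM. No marker of these lists was at 0 in all libraries. Choroid plexus markers summed to 589 to 20400 FPKM in control, 59.4 to 1630 FPKM in Hdac1 cKO, 55.9 to 7990 FPKM in 5XFAD and 62.1 to 14000 FPKM in compound mice, with 5 of 5 called lower in Hdac1 cKO and 4 of 5 in compound mice, and 1 of 3 endothelial markers was called lower in compound mice. The part of any of these cell types in the member values was not tested, and in bulk tissue a change in cell number cannot be told apart from a change in RNA per cell.

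Compound mice were compared with Hdac1 cKO mice to ask what 5XFAD adds when Hdac1 is already lost, a comparison the choice of members did not use, although both groups of mice entered it. Of 27 members tested, 23 were higher in compound mice, with a median log2 fold change of 0.27 against -0.01 over 14195 genes. Idi1, Msmo1, Nsdhl, Sqle and Stard4 were called higher, next to 2.94% of all genes, and none was called lower (0.613%). By limma with Benjamini-Hochberg adjustment over all genes, Sqle rose by 0.88 ± 0.10 (SE; adjusted p = 0.000386), Msmo1 by 0.83 ± 0.12 (adjusted p = 0.00256), Fdft1 by 0.58 ± 0.11 (adjusted p = 0.0142), Nsdhl by 0.68 ± 0.13 (adjusted p = 0.0193) and Idi1 by 0.64 ± 0.15 (adjusted p = 0.0469). Of these 5 enzymes, Idi1 belongs to the mevalonate arm and the other 4 to the squalene and sterol arm, and 1.49% of all genes passed the same threshold. Stard4 was at 1.06 ± 0.25 with an adjusted p of 0.0632.

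Sqle, Msmo1, Fdft1, Nsdhl and Stard4, together with Fdps and Scd2, had no overlap between the 5 Hdac1 cKO and 5 compound mice, as 2.44% of all genes in this direction, against no member and 0.902% in the other. At an unadjusted p under 0.05, 13 members were higher and 0 lower, where 6.31% and 4.03% of all genes were. Idi1 missed an adjusted p of 0.05 without Hdac1 cKO 1, 2, 3 or 5 or compound 1, 3 or 4 (up to 0.133), and Nsdhl without Hdac1 cKO 1, 4 or 5 or compound 2 or 4 (up to 0.0578), while Sqle, Msmo1 and Fdft1 passed without any 1 mouse. With per-gene variances Fdft1, Nsdhl and Idi1 missed the threshold (adjusted p of 0.0707, 0.0942 and 0.138), as they did with the replicate number as a block (0.0713, 0.0542 and 0.103). Mvd did not pass, with 0.26 (95% interval -0.26 to 0.79, adjusted p = 0.788; 0.05 without compound 4), nor did Acat2 (0.43 ± 0.16, adjusted p = 0.312). The microglial and astrocyte marker sums given above differed between these groups too, with 5 of 6 and 2 of 6 markers called higher in compound mice, and Ctsb, which overlaps Fdft1, was higher by 0.79 ± 0.10 (adjusted p = 0.000874, limma).

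Against 5XFAD mice, which share the transgenes but keep Hdac1, compound mice differed in no member beyond the threshold. By limma 0 of 28 members were called, next to 0.691% of all genes called higher and 0.593% lower, and 0 passed an adjusted p of 0.05 (0.00698% of all genes). At an unadjusted p under 0.05, Msmo1 (0.32, 95% interval 0.12 to 0.51), Idi1 (0.40, 0.10 to 0.70) and Sc5d (0.23, 0.0045 to 0.46) were higher, with adjusted p of 0.7, 0.718 and 0.738, next to 3.91% of all genes higher at that threshold, and 0 members were lower (2.7%). In the same comparison 1 of 6 astrocyte and 1 of 6 microglial markers were called higher, the astrocyte sums given above did not overlap, and their part in these values was not tested. For Mvd the difference was -0.19 (95% interval -0.74 to 0.35, adjusted p = 0.875; -0.02 without compound 1 and -0.41 without compound 4) and for Sqle 0.20 (-0.01 to 0.41, adjusted p = 0.742). With only the libraries under 2000 FPKM of Ttr (2 5XFAD and 4 compound mice, chosen after seeing the data) Tm7sf2 was called, next to 2.11% of all genes in either direction.

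An interaction term over all 20 hippocampal mice asked whether the 5XFAD effect differed with Hdac1. Idi1 (0.70 ± 0.24) and Msmo1 (0.59 ± 0.14) were called in the positive direction and Tm7sf2 (-0.75 ± 0.32) in the negative, 3 members next to 4.07% of all genes. Without control 1 only Tm7sf2 was called, and with the replicate number as a block only Idi1 was. Mvd, at -0.78 ± 0.32, was left out of the count, since the comparisons with control that chose it enter this term. By limma none of the others passed an adjusted p of 0.05 (0.394 for Idi1, 0.297 for Msmo1, 0.505 for Tm7sf2), nor did any of the 14389 genes tested (0% of all genes, with 1290, or 8.97%, at an unadjusted p under 0.05).

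In GFAP+ cortical nuclei, which held oligodendrocyte markers beside those of astrocytes, Hdac1 cKO was compared with control in other samples. Of 28 members, 18 were higher and 10 lower, with a median log2 fold change of 0.13 against -0.01 over 15070 genes. By limma 0 members were called (1.24% of all genes higher, 1.34% lower), 0 passed an adjusted p of 0.05 (0.0133% of all genes), and 0 had an unadjusted p under 0.05, as 709 genes did. Mvd had the largest difference of the members, with 36.9, 22.9 and 47 FPKM in control and 67, 51.4, 55 and 36.2 FPKM in Hdac1 cKO nuclei. The groups overlapped at 1 Hdac1 cKO sample, and the difference was 0.57 (95% interval -0.0036 to 1.14, adjusted p = 0.984, exact permutation p = 0.171 with 0.0286 as the smallest possible). It was 0.29 without control 3 and 0.79 without control 4, and Mvd was called without control 4 or Hdac1 cKO 4. Of the 11 enzymes of the squalene and sterol arm, 9 were on the higher side and the median was 0.28, among them Cyp51 (0.35, 95% interval -0.04 to 0.75) and Hsd17b7 (0.28, -0.13 to 0.68), the latter without overlap between groups, as were 2.97% of all genes in this direction. In the mevalonate arm 3 of 6 were higher and 3 lower with a median of 0.02, and the medians were 0.08 for the regulators and 0.11 for the fatty acid arm. In these nuclei all 6 astrocyte markers were on the higher side in Hdac1 cKO with 0 called, and their sum was 2060 to 2340 FPKM in control and 2200 to 2400 FPKM in Hdac1 cKO samples. In addition 2 of 4 choroid plexus markers tested were called higher and 1 of 3 endothelial markers lower in Hdac1 cKO, and 6 neuronal markers summed to 168 to 243 FPKM in control and 170 to 195 FPKM in Hdac1 cKO samples. Oligodendrocyte markers summed to 635 to 1230 FPKM in control and 451 to 1130 FPKM in Hdac1 cKO samples. The part of these markers' cells in the nuclear values was not tested. Cyp46a1 was at 34.6, 38.2 and 34.5 FPKM in control and 31.4, 22.9, 33.4 and 28.7 FPKM in Hdac1 cKO nuclei, lower without overlap (2.75% of all genes), at -0.30 (-0.65 to 0.05).

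**Figure D5:**
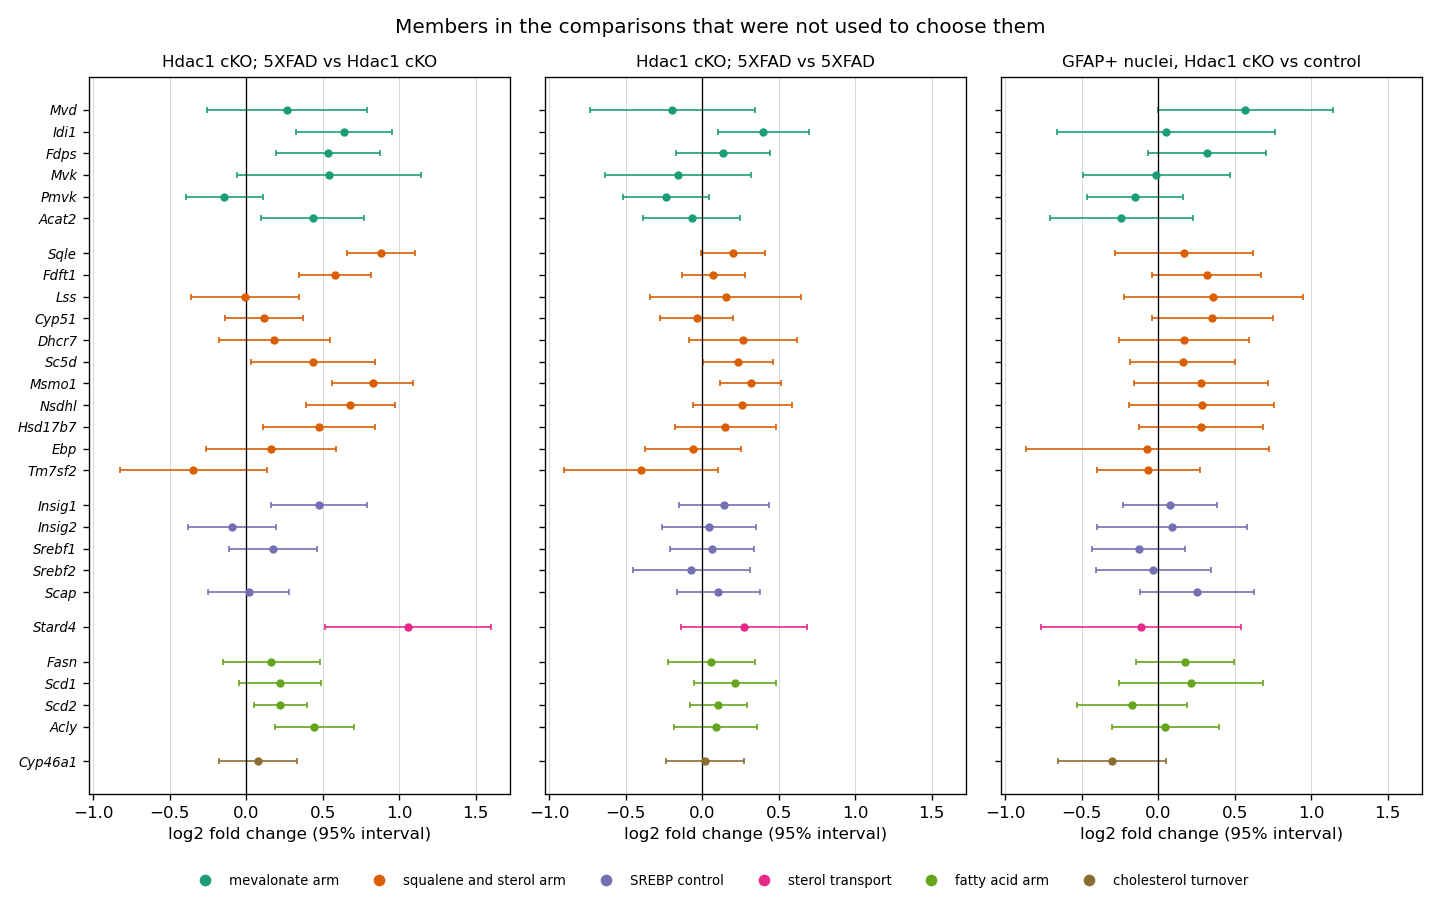
Log2 fold change of the members with 95% intervals in compound against Hdac1 cKO mice (left), compound against 5XFAD mice (middle) and Hdac1 cKO against control GFAP+ nuclei (right), with colours for roles. In the left panel the intervals of the 13 members with an unadjusted p under 0.05 (limma) lie wholly above 0, among them Sqle, Msmo1, Fdft1, Nsdhl, Idi1 and Stard4. In the middle panel those of Msmo1, Idi1 and Sc5d do, and in the right panel every interval includes 0.

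Other genes of the pathway were taken from 3 lists. Of 8 genes of SREBP processing and sterol-regulated degradation, 0 were called in any of the 7 comparisons (limma). Over all genes, from 184 of 14326 (compound against 5XFAD) to 608 of 14348 (compound against control) were called in a comparison. In Hdac1 cKO against control 1 of the 8 had an unadjusted p under 0.05, on the lower side. Of all 14265 genes 1676 had such a p in either direction, so that 1 gene is not read as a result of the list. Of 24 genes of cholesterol uptake, efflux and storage, Apoe, the main apolipoprotein of the brain (0.61 ± 0.12, adjusted p = 0.021, limma), and Npc2, which exports cholesterol from lysosomes (0.85 ± 0.14, adjusted p = 0.00664), rose in compound against Hdac1 cKO mice, where 2.94% of all genes were called higher, and 0 were called lower. In the same comparison 5 of 6 microglial and 2 of 6 astrocyte markers were called higher, and their part in these values was not tested. Ch25h, a cholesterol hydroxylase, was called higher there too (1.89 ± 0.22). Its mean was 0.264 FPKM in control, 0.272 FPKM in Hdac1 cKO, 1.44 FPKM in 5XFAD and 3.7 FPKM in compound mice. It thus passed the low-value filter only through mice with 5XFAD, and its calls against control or Hdac1 cKO and in the interaction only describe it. Ch25h was also called higher than control in 5XFAD (1.72% of all genes) and compound mice (2.22%), as was Mylip in compound mice. Ch25h was called higher in compound against 5XFAD mice too (0.691%). In the interaction Ch25h and Npc2 were called in the positive direction (4.07% of all genes in either direction). In neither of these 2 comparisons did a gene of the list pass an adjusted p of 0.05 (limma). Of 26 other genes of fatty acid synthesis, elongation and desaturation, 0 were called in compound against Hdac1 cKO mice by limma, and 3 of the 23 tested had an unadjusted p under 0.05, where 6.31% of all genes were higher and 4.03% lower. Against control, Elovl7, a fatty acid elongase, was called lower in all 3 mutant groups (2.87%, 1.23% and 2.02% of all genes in Hdac1 cKO, 5XFAD and compound mice), Mcat higher in Hdac1 cKO and 5XFAD (0.498% and 1.72%) and Elovl5 higher in compound mice (2.22%). Elovl7 was at 4.75 FPKM in control 1, where Ttr was at 576 FPKM, and at 8.47 to 12.5 FPKM in the other controls, and compound 1, the compound mouse with the highest Ttr, was at 10.3 FPKM against 3.58 to 4.97 FPKM in the others. In 5XFAD mice Elovl7 was at 3.13 to 5.97 FPKM, while Ttr ran from 53.8 to 7890 FPKM. In Hdac1 cKO mice the ranges were 2.84 to 3.59 FPKM and 56.5 to 1610 FPKM. The part of choroid plexus tissue in the Elovl7 values was not tested.

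Within groups the members shared little variation. After group means were removed, the median Pearson r over the 351 pairs of 27 members across the 20 hippocampal mice was 0.11, next to 0.01 between members and all other genes tested, as a description of values that share library and depth. The median was 0.18 in the squalene and sterol arm and 0.11 in the mevalonate arm. Mvd had the highest median r with the other members, 0.29, and its closest partners were Cyp46a1 (r = 0.70) and Mvk (r = 0.54) on the positive side and Insig2 (r = -0.59) on the negative, while Mvk and Cyp46a1 had the highest r of all pairs (0.89) and Dhcr7 and Hsd17b7 the lowest (-0.73).

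Promoters of the members were compared because many members were higher together. The RefSeq table (GRCm38.p6) held 31 promoters of 23 of the 29 genes, and Sqle, Fdps, Fdft1, Stard4, Scd1 and Scd2 had no entry. A sterol regulatory element, TCACNCCAC on either strand, was found in 1 of the 31 promoters, that of Hmgcs1, and in 1.24% of all 32851 promoters of the table. The CCAAT box (CCAAT on either strand) was found in 22 of the 31 (71%), against 37.4% of all promoters, and the GC box (GGGCGG on either strand) in 25 of the 31 (80.6%), against 35.7%, and both of these motifs were chosen after seeing the data. A match is a description of letters in this window and not of binding. The stretch of the Hmgcs1 promoter around the element (chr13:119690204-119690233, plus strand) is shown because it holds the single match, with the motif in capitals.
Hmgcs1: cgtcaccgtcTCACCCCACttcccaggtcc
The promoters of the 3 members that rose in compound against Hdac1 cKO mice and have an entry are shown with CCAAT or ATTGG in capitals. That of Msmo1 (chr8:64733529-64733828, minus strand) holds 3 CCAAT boxes, that of Nsdhl (chrX:72918271-72918570, plus strand) 4 and that of Idi1 (chr13:8885356-8885655, plus strand) 2. This does not set the 3 apart, since 21 of the 23 genes held a CCAAT box. Among the others, Mvk held 5 and Hsd17b7 3, while Scap and Acat2 held none.
Msmo1: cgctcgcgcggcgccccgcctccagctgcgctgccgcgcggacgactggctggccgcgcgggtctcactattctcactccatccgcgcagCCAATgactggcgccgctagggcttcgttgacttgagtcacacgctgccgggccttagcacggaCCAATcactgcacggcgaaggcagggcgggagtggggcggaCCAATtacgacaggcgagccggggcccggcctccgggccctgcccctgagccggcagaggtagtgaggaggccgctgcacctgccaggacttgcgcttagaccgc
Nsdhl: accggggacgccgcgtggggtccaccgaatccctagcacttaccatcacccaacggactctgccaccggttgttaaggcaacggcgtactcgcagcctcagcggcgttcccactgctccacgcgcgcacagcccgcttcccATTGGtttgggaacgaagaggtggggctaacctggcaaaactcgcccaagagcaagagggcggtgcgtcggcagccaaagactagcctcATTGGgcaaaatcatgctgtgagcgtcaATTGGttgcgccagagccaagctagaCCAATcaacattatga
Idi1: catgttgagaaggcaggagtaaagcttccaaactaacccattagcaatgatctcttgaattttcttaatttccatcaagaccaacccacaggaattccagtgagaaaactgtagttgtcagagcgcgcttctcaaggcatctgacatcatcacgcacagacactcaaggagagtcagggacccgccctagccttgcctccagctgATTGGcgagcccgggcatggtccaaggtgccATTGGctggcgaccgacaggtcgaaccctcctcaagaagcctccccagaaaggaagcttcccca
None of these 3 promoters held TCACNCCAC.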

How the data were processed

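The deposited values are FPKM per gene and library, made by the authors with TopHat and Cufflinks 2.0.0 on mm9 per the labels and the study's methods: hippocampal reads came from collapsed 3′ digital gene expression tags, and reads of sorted GFAP+ nuclei from SMART-Seq v4 libraries. Strand setting are not given in the sources used here. Of 34 samples listed, 27 were analysed. The other 7, 6 ChIP-seq samples and 1 GFAP control, were not analysed here. The study gives a mean read yield per sample, but read totals of the single libraries are not known. Depth is therefore relative, from the spacing of low FPKM values.

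FPKM were transformed to log2(FPKM + 1), which understates changes of low genes. Only genes averaging 0.5 FPKM or more over the libraries of a fit entered limma 3.58.1 (R 4.3.3; intensity trend, robust moderation) with Benjamini-Hochberg adjustment over all genes tested. Calls needed a 1.5-fold difference or more together with unadjusted p below 0.05. Permutation tests were exact and two-sided. The fits were tested on simulated data. Each comparison used its own groups alone, and the interaction used all 4 hippocampal groups.

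The members and lists were chosen with earlier results of these data known. Values are given by mouse for Mvd and each member called in any comparison, with the 5XFAD mice as lowest, median and highest, and other members are given by range and counts. Alternatives covered the pseudocount, low-value filter, normalization, variance model, joint fit, ratio of means, a replicate block and leaving out each library. Same-numbered samples did not deviate together (r from -0.113 to 0.0938 over 30 pairs), so the block was not the main design. A list of other cholesterol synthesis genes is not reported here.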

Additional observations from a re-analysis of the deposited data

Results flagged for a closer look

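Of 55 groups of values with 4 to 6 samples each, 1 held a mouse far from the rest, where chance at 1 in 20 would give about 2.8: Nsdhl in 5XFAD replicate 1 was at 9.62 FPKM, and the other 5XFAD mice were at 15.2 to 17.2 FPKM. The 5XFAD effect differed with Hdac1 at an unadjusted p under 0.05 for Idi1 (0.702 on the log2 scale), Msmo1 (0.588), Sc5d (0.511) and Tm7sf2 (-0.747), next to 8.97% of all genes at that threshold. Mvd (-0.784) was left out, since the comparisons that chose it enter this term. None of these 4 interactions passed adjustment over all genes by limma (adjusted p of 0.394, 0.297, 0.517 and 0.505). Msmo1 was lower on average in Hdac1 cKO than in control and higher in compound than in 5XFAD mice, and Tm7sf2 went the other way, with overlap between groups.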

How the results depend on the processing

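The median log2 fold change over the members moved by less than 1 SD between mice under every alternative that kept all mice or split them by Ttr. Leaving out 1 mouse moved it by more without 5XFAD 6 (0.284 in place of 0.253 in 5XFAD against control) and without compound 1 (0.391 in place of 0.265 in compound against Hdac1 cKO), and gave -0.0911 to -0.0234 for Hdac1 cKO against control, 0.229 to 0.284 for 5XFAD, 0.266 to 0.393 for compound, 0.0598 to 0.112 for compound against 5XFAD, 0.179 to 0.391 for compound against Hdac1 cKO, 0.0511 to 0.205 in nuclei and 0.106 to 0.198 for the interaction. Counts of called members ran in the same order from 0 (without control 3, Hdac1 cKO 1, 2 or 3) to 2 (without control 4), 2 (without 5XFAD 5) to 5 (without control 1 or 2 or 5XFAD 3), 4 (without compound 4) to 7 (without compound 1), 0 to 0, 5 to 8 (without compound 5), 0 to 1 (Mvd, without GFAP control 4 or GFAP Hdac1 cKO 4) and, for the interaction without Mvd, 1 (without control 1) to 3. With a pseudocount of 0.1, or the fold from mean FPKM, 5 members were called in 5XFAD against control in place of 3. With libraries under 2000 FPKM of Ttr 1 (Tm7sf2) was called in compound against 5XFAD. With the replicate block 1 member (Idi1) was called in the interaction in place of 3, and in compound against Hdac1 cKO the adjusted p was 0.103 for Idi1, 0.0713 for Fdft1 and 0.0542 for Nsdhl. In the comparisons with control the block gave 1, 4 and 5 called members in place of 1, 3 and 6, and it changed no other test of a named member. With per-gene variances these 3 also missed the threshold (0.138, 0.0707 and 0.0942), Idi1 missed it without the filter (0.0692) and without trend and robust options (0.071), and Stard4 passed (0.0182) with all 4 groups in one fit. The causes were not tested. Precision is limited by 3 to 6 mice a group and, for Srebf2, Lss and Dhcr7 in hippocampus, by low FPKM.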
